A study of Drosophila melanogaster with 16 samples.

Results

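Loss of the PARP1 protein and block of its activity were set against each other directly. The 3 libraries labelled KD (PARP knockdown) and the 3 labelled PARPi (inhibited PARylation), both of December, were compared gene by gene, with no WT library in the test. They were chosen by the treatment and the month in their labels alone and are 6 of the 16 libraries of the series. Each library held total RNA of S2 cells, a cultured line from Drosophila melanogaster embryos with hemocyte (blood cell) features. In KD cultures PARP1 was depleted with siRNA, which the study checked by Western blot of the protein. PARPi cultures received 10 µM PJ34 for 16 h, an inhibitor of the catalytic activity of PARP enzymes. All groups were grown in the same medium and were matched in growth time and density. For some of the named genes the levels of the 3 December WT libraries are given as well. The 4 KD and 3 WT libraries of October share no library with the comparison and give a separate reading of KD against WT. The sources used here give neither the length of the knockdown nor a control siRNA or solvent control, so loss of PARP1 cannot be told apart from siRNA delivery, nor blocked activity from other actions of PJ34.

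PARP1 binds chromatin and uses NAD to build chains of poly(ADP-ribose) on itself, on histones and on other nuclear proteins. A knockdown takes away the protein together with its activity, whereas an inhibitor leaves the protein in the cell without its activity. In Drosophila, PARP is known for the loosening of chromatin at heat shock loci and for a part in innate immune gene expression.

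The authors deposited raw read counts per gene, and levels are given here as CPM (read counts relative to the library total after TMM scaling, which corrects for differences in composition). Counts on genes were between 77671859 and 86847486 per KD library and between 81991083 and 89267306 per PARPi library. Of 17737 genes, the 11243 with at least 10 counts in total over the 6 libraries entered edgeR's quasi-likelihood test, and a gene is termed called when its Benjamini-Hochberg adjusted p was below 0.05. Libraries are numbered as in the labels (KD 1 to KD 3, PARPi 1 to PARPi 3). A positive log2 fold change means a higher level in KD. KD and PARPi libraries with the same number deviated together, as described with the processing, and a fit with the replicate number as a block is given where it moves a result. Of 11 hemocyte markers, 9 had at least 1 CPM in each group, while NimC1, a phagocytosis receptor, stayed between 0.0115 and 0.0671 CPM.

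Parp1 mRNA was read first to check the labels. The gene (FBgn0010247) lies on the minus strand of chromosome 3R of BDGP6, from 3461351 to 3587054. Its level was 164, 171 and 141 CPM in the libraries labelled KD 1 to 3 and 166, 151 and 159 CPM in PARPi 1 to 3. The KD range enclosed the PARPi range, and the means were 159 ± 15.8 and 159 ± 7.66 CPM (SD, n = 3 each). The log2 fold change was 0.001 (SE 0.0772, adjusted p = 0.994 by edgeR), and an exact two-sided permutation test gave p = 1, the smallest possible p being 0.1 for groups of 3. WT libraries gave 175, 186 and 163 CPM. Between 11218 and 15857 reads were counted on Parp1 per library. The mRNA therefore gave no separation of KD from PARPi, and the identity of the KD libraries rests on their labels: each direction below is that of the libraries labelled KD.

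KD and PARPi differed in 459 genes, 4.08% of those tested, with 247 higher in KD (2.20%) and 212 lower (1.89%). The differences were small: the median absolute log2 fold change of the called genes was 0.417, 339 of them stayed below 1.5-fold, and 41 reached 2-fold or more, 34 of these higher in KD. Of the called genes, 428 code for proteins and 429 had a mean of at least 1 CPM. In 454 of them no KD library overlapped a PARPi library, which held for 22.3% of all genes tested. Called genes were selected for a gap between the same libraries, so their lack of overlap follows largely from that selection. The plot of all tested genes shows Hsp26 and Hsp70Bb among the rises and MtnA and Fer1HCH among the falls at high counts. Its widest points, below 0.1 CPM, rest on few reads.

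**Figure D1:**
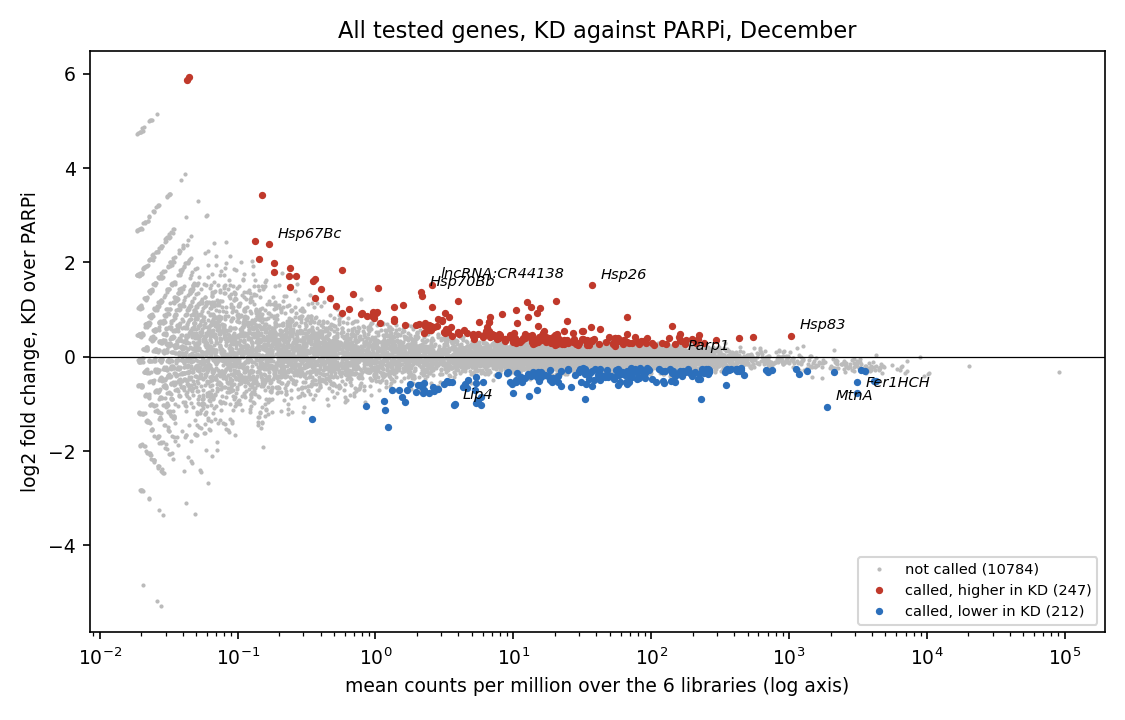
Log2 fold change of KD over PARPi (vertical axis) against mean CPM over the 6 libraries (horizontal log axis) for the 11243 genes tested. Red points are the 247 genes called higher in KD, blue points the 212 called lower, grey points the genes not called; Hsp26 lies at 1.52, MtnA at -1.06 and Parp1 at 0.001.

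The number of calls depended on single libraries and on the pairing. With the replicate block 2766 genes were called (24.6%), 1240 higher and 1526 lower, and all 459 genes were among them. Without PARPi 1 the count was 1851, while it fell to 244 without PARPi 2, 185 without KD 1, 113 without PARPi 3 and 102 without KD 3, and 90 genes stayed called in every such fit. Scaling to plain library sizes, after leaving out the 20 most counted genes, moved the median of all genes from 0.004 to 0.102 on the log2 scale and gave 728 calls, 85.7% of them higher in KD against 53.8% with TMM. Under this scaling 19 of the genes named here as lower in KD were not called (adjusted p from 0.0528 to 0.255 by edgeR): Pvf1, PPO3, PGRP-LA, Naam, Nadk1a, Act5C, tsr, RpL27A, RpL18, mRpS21, mRpL43, mRpL48, ND-19, ND-ASHI, ND-B18, cype, eIF4EHP, eIF3h and, on chromosome 4, CG33941.

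Counts of called list members, here and below, are to be read beside 4.08% of all genes, or 24.6% with the replicate block. Of the gene lists examined, the 2 heat shock lists had the highest medians. Small heat shock proteins, which hold unfolding proteins in a soluble state, were led by Hsp26, and 4 of the 6 measured members were higher in KD and none lower, with a list median of 1.12 on the log2 scale beside 0.004 over all genes. Hsp26 gave 40.8, 56.3 and 69.5 CPM in KD 1 to 3 and 14.0, 20.7 and 23.5 CPM in PARPi 1 to 3. Every KD library lay above every PARPi library, with a log2 fold change of 1.52 (SE 0.180, adjusted p = 4.06e-04 by edgeR). Hsp23 gave 20.1, 33.6 and 31.5 CPM against 9.94, 12.002 and 15.6 CPM, and Hsp27 gave 14.2, 18.8 and 21.3 CPM against 7.33, 9.06 and 9.72 CPM. Neither overlapped between groups. Hsp23 had a log2 fold change of 1.18 (SE 0.173, adjusted p = 0.00169 by edgeR), and Hsp27 had a log2 fold change of 1.06 (SE 0.134, adjusted p = 6.54e-04 by edgeR). Hsp67Bc, from the same family, was counted at 21, 20 and 33 reads in KD and 3, 5 and 5 reads in PARPi, higher with a log2 fold change of 2.40 (SE 0.498, adjusted p = 0.0169 by edgeR). Its call ended without KD 3 or without PARPi 3 (adjusted p = 0.131 and 0.0735 by edgeR). The called members lie within 14.2 kb of chromosome 3L (9371511 to 9385694), where Hsp26 (FBgn0001225) spans 9376418 to 9377427 on the minus strand and Hsp23 (FBgn0001224) 9381882 to 9382765 on the plus strand. Hsp67Ba, inside the same stretch, was low in all libraries (11, 14 and 22 reads in KD, 12, 23 and 24 in PARPi) and was not called. The median of the list stayed between 0.99 and 1.29 over all 22 alternatives.

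Genes of the Hsp70 family encode ATP-driven chaperones made on heat shock. Of 8 measured members of the list, which also holds Hsp68 and the heat shock RNA lncRNA:Hsromega, 3 were higher and none lower, all 8 had a positive log2 fold change, and the median was 1.19. Only 3 of the 8 had at least 1 CPM, and the median level was 0.68 CPM. Summed over the list, levels were 135 to 167 CPM in KD, 110 to 137 CPM in PARPi and 143 to 181 CPM in WT, so KD and PARPi overlapped. Hsp68 gave 13.8, 15.3 and 22.6 CPM in KD and 6.25, 8.79 and 8.26 CPM in PARPi. The groups did not overlap, and Hsp68 was higher with a log2 fold change of 1.15 (SE 0.161, adjusted p = 0.00129 by edgeR). Hsp70Bb gave 2.47, 3.06 and 3.78 CPM against 0.990, 1.34 and 1.28 CPM (between 86 and 330 reads per library), higher with a log2 fold change of 1.37 (SE 0.180, adjusted p = 8.85e-04 by edgeR). With the 9 December libraries in 1 model Hsp70Bb was not called (adjusted p = 0.106 by edgeR). Hsp70Bc gave 0.396, 0.931 and 1.35 CPM against 0.230, 0.309 and 0.214 CPM, higher with a log2 fold change of 1.83 (SE 0.396, adjusted p = 0.0210 by edgeR), a call that ended without KD 3 or PARPi 3 (adjusted p up to 0.161). The Hsp70 copies are near-identical in sequence, and since the sources used here do not say how reads with several matches were counted, the share of each copy is uncertain. The signs of the copies may therefore not be separate readings. The block called 6 of the 8, all higher.

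The level of these genes was uneven in WT, and for Hsp26 and Hsp70Bb the KD libraries lay within the WT range. Hsp26 gave 30.9, 20.2 and 87.4 CPM in WT 1 to 3, and Hsp70Bb gave 2.49, 1.09 and 11.2 CPM, so that WT 3 stood above all KD libraries while WT 2 lay in the PARPi range. Summed over the 6 small heat shock genes, levels were 31.5 to 49.3 CPM in PARPi, 75.5 to 123 CPM in KD and 41.4 to 140 CPM in WT. The KD and PARPi sums did not overlap, and the WT sums reached into both.

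Chaperones that cells also use without stress were higher in KD in 4 of 20 cases, with none lower and a median of 0.118 (9 higher and 1 lower with the replicate block). These are 20% of the list, and 50% with the block, beside 4.08% and 24.6% of all genes. Hsp83, the fly Hsp90, gave 1209.6, 1132 and 1248 CPM in KD and 929, 851 and 855 CPM in PARPi, higher with a log2 fold change of 0.45 (SE 0.0693, adjusted p = 0.00243 by edgeR). stv (starvin), a BAG co-chaperone of Hsp70, gave 6.44, 6.89 and 7.78 CPM against 4.01, 4.36 and 4.29 CPM, higher with a log2 fold change of 0.74 (SE 0.101, adjusted p = 0.00110 by edgeR). In both genes every KD library was above every PARPi library. DnaJ-1, an Hsp40 that works with Hsp70, and Hsc70-2 were called at 0.29 and 0.93 (adjusted p = 0.0210 and 0.0491 by edgeR), and both calls ended without KD 1, KD 3, PARPi 2 or PARPi 3 (adjusted p up to 0.192). Hsc70-2 rested on 26 to 76 reads per library. Of 17 genes of the unfolded protein response, 2 were higher and none lower (6 and 2 with the block). That is 11.8% of the list, and 47.1% with the block, beside the same shares of all genes. Thor, the 4E-BP that restrains cap-dependent translation, had a log2 fold change of 0.38 (SE 0.0642, adjusted p = 0.00478 by edgeR). PEK, the kinase that senses unfolded proteins in the endoplasmic reticulum, had a log2 fold change of 0.32 (SE 0.0807, adjusted p = 0.0390 by edgeR). Without KD 3 the adjusted p of Thor was 0.0642, and that of PEK passed 0.05 without KD 1, KD 3, PARPi 2 or PARPi 3 (up to 0.206). The plot of heat shock genes by library shows the gap between KD and PARPi and the spread in WT.

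**Figure D2:**
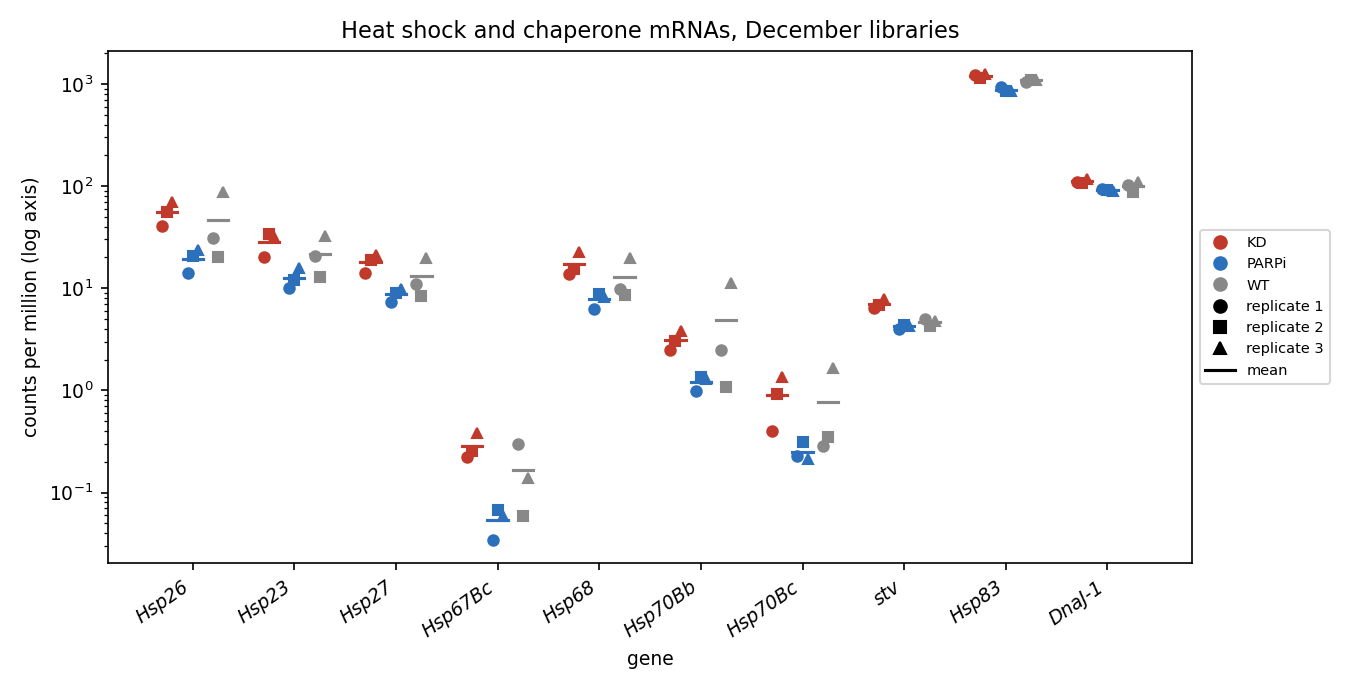
CPM (log axis) of 10 heat shock and chaperone genes in the 9 December libraries; colours give the group, symbols the replicate number and bars the group mean. In Hsp26, Hsp23, Hsp27, Hsp68 and Hsp70Bb all KD points (red) lie above all PARPi points (blue), while WT points (grey) run from the PARPi level to the KD level or above it.

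Both ferritin genes and a metallothionein were lower in KD. Of 18 measured genes of metal handling 3 were lower and none higher, and the list median was -0.165, negative in all 22 alternatives (from -0.169 to -0.032). The replicate block called 7 lower and none higher. Called genes made up 16.7% of the list, and 38.9% with the block, beside 4.08% and 24.6% of all genes. Fer1HCH, the ferritin heavy chain that oxidizes and stores iron, gave 2135, 2472 and 2327 CPM in KD and 3476, 3998 and 4314 CPM in PARPi. The groups did not overlap, with a log2 fold change of -0.77 (SE 0.0878, adjusted p = 3.68e-04 by edgeR). Fer2LCH, the ferritin light chain, gave 18.9, 21.8 and 21.0 CPM against 30.4, 33.6 and 31.8 CPM, with a log2 fold change of -0.64 (SE 0.0739, adjusted p = 3.68e-04 by edgeR). The 2 ferritin genes lie head to head on chromosome 3R, Fer1HCH (FBgn0015222) from 30385573 to 30388178 on the minus strand and Fer2LCH (FBgn0015221) from 30387804 to 30390584 on the plus strand, and share 375 bases. The sources used here do not say whether counting used the strand, and reads of the shared stretch are therefore uncertain. Zip99C, a transporter that moves iron toward the ferritin of the secretory pathway, is outside the list and was named after its values were seen. It gave 268, 289 and 275 CPM against 385, 452 and 428 CPM, with a log2 fold change of -0.60 (SE 0.0716, adjusted p = 4.06e-04 by edgeR). MtnA, a metallothionein that binds copper, gave 968, 1406 and 1303 CPM against 1807, 3113 and 2735 CPM, with a log2 fold change of -1.06 (SE 0.165, adjusted p = 0.00243 by edgeR). Within each group the number 1 library had the lowest MtnA, and KD 2 still lay below PARPi 1. WT gave 3715, 2870.3 and 3502 CPM of Fer1HCH, 449, 358 and 507 CPM of Zip99C and 3151, 2256 and 3400.3 CPM of MtnA, above KD in every library.

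Antimicrobial peptides, the secreted effectors of fly immunity, were lower in KD where they were called. Of 16 measured genes 3 were lower (18.8%, beside 4.08% of all genes) and none higher. In 14 the log2 fold change was negative, with a list median of -0.62, negative in all 22 alternatives. Only 8 of the 16 had at least 1 CPM, and summed levels overlapped (45.5 to 55.9 CPM in KD, 47.1 to 68.4 CPM in PARPi). Drs (drosomycin), the antifungal readout of the Toll pathway, gave 2.31, 2.70 and 2.61 CPM in KD and 4.87, 4.47 and 5.81 CPM in PARPi. Every KD library was below every PARPi library, with a log2 fold change of -0.99 (SE 0.126, adjusted p = 6.54e-04 by edgeR). AttB and edin, 2 more peptides induced by infection, were called at -0.68 and -0.66 (adjusted p = 0.0278 and 0.0406 by edgeR). Both calls ended without KD 3 or PARPi 3, and that of edin also without KD 1 or PARPi 2 (adjusted p up to 0.239). With the 9 December libraries in 1 model AttB and edin were not called (adjusted p = 0.403 and 0.286 by edgeR), and WT 3 held 18.2 CPM of AttB and 21.6 CPM of edin against at most 3.35 and 6.38 CPM in the other WT libraries. AttB has a near-identical copy, AttA, so its count is uncertain. Under the block 5 of the 16 were lower and 1 higher (37.5%, beside 24.6% of all genes).

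Upstream of the peptides, 2 of 31 genes of Toll and Imd signalling were lower and none higher (6.45%, beside 4.08% of all genes). PGRP-SA, the secreted receptor that detects Gram-positive bacteria for the Toll pathway, gave 47.3, 52.2 and 46.5 CPM in KD and 68.5, 75.5 and 68.8 CPM in PARPi, lower with a log2 fold change of -0.54 (SE 0.0701, adjusted p = 7.39e-04 by edgeR). The WT mean lay between the groups, nearer to KD (52.2, 55.6 and 58.2 CPM). PGRP-LA, a second recognition protein, was called at -0.28 (adjusted p = 0.0462 by edgeR), a call that ended without KD 1, KD 3, PARPi 2 or PARPi 3 (up to 0.241) and with plain library sizes (0.172). Of this list 4 genes were higher and 10 lower with the replicate block (45.2%, beside 24.6% of all genes).

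In the JAK/STAT pathway 2 of 19 genes were higher and none lower (7 and 1 with the replicate block). This makes 10.5% of the list, and 42.1% with the block, beside 4.08% and 24.6% of all genes. Socs36E, a target of the pathway and its feedback inhibitor, gave 267, 240.2 and 263 CPM in KD and 182, 195.6 and 181 CPM in PARPi. All 3 KD libraries lay above both the PARPi and the WT libraries (193, 202 and 201 CPM in WT), and the gene was higher than in PARPi with a log2 fold change of 0.46 (SE 0.0670, adjusted p = 0.00161 by edgeR). hop, the only Janus kinase of the fly, was called at 0.31 (adjusted p = 0.0446 by edgeR) and lost its call without KD 1, KD 3, PARPi 2 or PARPi 3 (up to 0.214).

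Genes of hemocyte identity and phagocytosis were lower in KD in 5 of 26 cases (19.2%, beside 4.08% of all genes) and higher in none. The median was -0.26, negative in all 22 alternatives, while 7 of the 26 had a positive log2 fold change. Only 16 of the 26 had at least 1 CPM. Summed levels overlapped, at 3398 to 3659 CPM in KD and 3527 to 3768 CPM in PARPi. Of the 26, the replicate block called 10 lower and none higher (38.5%, beside 24.6% of all genes). Of the 11 hemocyte markers counted at the start, 1 was called, and 3 with the block. In RNA of whole cultures, fewer cells of a type and less RNA per cell cannot be told apart. Hml (hemolectin), a clotting factor and marker of mature plasmatocytes, gave 232, 209.8 and 230.2 CPM in KD and 295, 269 and 307 CPM in PARPi, lower with a log2 fold change of -0.38 (SE 0.0707, adjusted p = 0.00908 by edgeR). He (hemese), a surface glycoprotein of all hemocytes, gave 1.47, 1.70 and 1.25 CPM against 2.80, 1.95 and 2.63 CPM, lower with a log2 fold change of -0.75 (SE 0.173, adjusted p = 0.0280 by edgeR). In both genes the KD libraries lay below the PARPi and the WT libraries, of which WT gave 2.42, 2.49 and 2.43 CPM of He. The other called members were Pvf1, a growth factor for hemocyte survival, at -0.38, and the prophenoloxidases PPO1 and PPO3, enzymes of melanization, at -1.04 and -0.32 (adjusted p = 0.0282, 0.0452 and 0.0462 by edgeR). PPO1 was counted at 41, 30 and 73 reads in KD and 110, 76 and 96 reads in PARPi. With a stricter filter on counts (filterByExpr) PPO1 was not called (adjusted p = 0.0549 by edgeR). In Pvf1 it was PARPi that stood apart, with 64.6, 54.5 and 72.8 CPM against 48.5, 49.6 and 49.6 CPM in KD and 47.3, 45.4 and 45.1 CPM in WT. All 5 calls ended without PARPi 3 and those of Hml, He, Pvf1 and PPO3 also without KD 3. He, Pvf1, PPO1 and PPO3 ended without KD 1 too, Pvf1, PPO1 and PPO3 without KD 2, and PPO1 and PPO3 without PARPi 2 (adjusted p up to 0.228). Markers of other cell types gave 1 call among 11 muscle genes (sls, titin, at 0.33), 1 among 8 fat body genes (Lsp1gamma at 1.48, with the whole list summing to at most 2.51 CPM in a KD library and 1.47 CPM in a PARPi library), and none among 8 neuronal and 5 germline genes (1 of each at an unadjusted p below 0.05, with 1 germline gene called by DESeq2 and none of the neuronal). The calls of sls and Lsp1gamma ended without KD 1, KD 3, PARPi 2 or PARPi 3, and that of Lsp1gamma also without KD 2 (adjusted p up to 0.217 by edgeR). With the length trend removed sls was not called (0.155).

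Of 15 genes of the basement membrane, the matrix that hemocytes secrete, 1 was higher and 1 lower (2 and 2 in the block fit, 2 and 7 with the length trend removed as well). Shares called were 13.3%, beside 4.08% of all genes, and 26.7% in the block fit, close to 24.6% of all genes. trol, the fly perlecan, gave 201, 174 and 188 CPM in KD and 129.7, 128 and 145 CPM in PARPi, higher with a log2 fold change of 0.48 (SE 0.0740, adjusted p = 0.00224 by edgeR). Glt (glutactin) gave 56.9, 50.4 and 52.6 CPM against 88.2, 68.5 and 81.6 CPM, lower with a log2 fold change of -0.57 (SE 0.0867, adjusted p = 0.00198 by edgeR). In both genes the WT mean lay between the groups. The plot of metal, immune and hemocyte genes shows these levels by library.

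**Figure D3:**
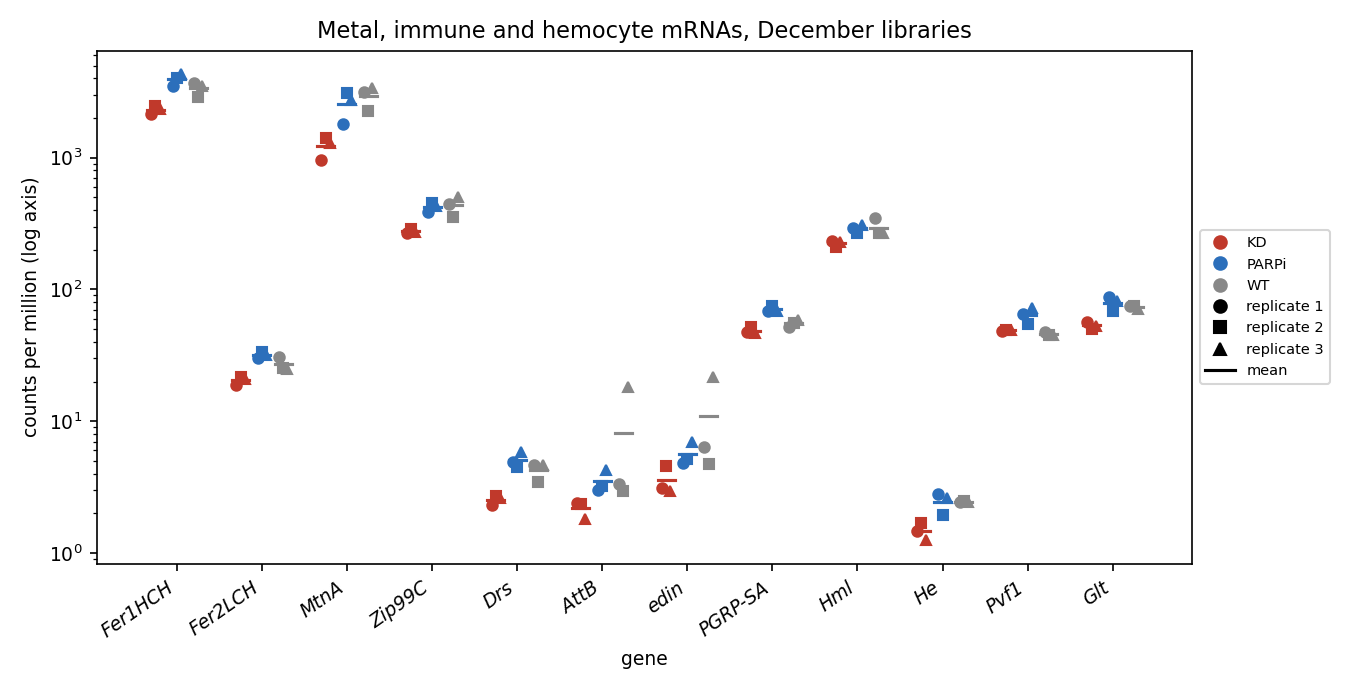
CPM (log axis) of 12 metal, immune, hemocyte and matrix genes in the 9 December libraries, with colours, symbols and bars as in the heat shock plot. In Fer1HCH, Fer2LCH, MtnA, Zip99C and Drs all KD points lie below all PARPi points; AttB and edin show WT 3 at 18.2 and 21.6 CPM, above all other libraries.

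The enzymes that make and use NAD, the substrate of PARP1, were examined as a list of 16 genes including Parp1 itself, of which 1 was higher and 2 lower (3 and 2 in the block fit). Shares called were 18.8%, beside 4.08% of all genes, and 31.2% in the block fit, beside 24.6% of all genes. Sarm, an NAD hydrolase known from degenerating axons, gave 536, 447 and 487 CPM in KD and 414, 339 and 363 CPM in PARPi, higher with a log2 fold change of 0.40 (SE 0.0851, adjusted p = 0.0198 by edgeR). Naam, the nicotinamidase that recycles the product of PARP1, gave 29.7, 30.5 and 30.4 CPM against 37.3, 34.1 and 37.0 CPM, lower with a log2 fold change of -0.26 (SE 0.0652, adjusted p = 0.0404 by edgeR). Nadk1a, an NAD kinase, was lower with a log2 fold change of -0.27 (SE 0.0690, adjusted p = 0.0460 by edgeR). For Naam the WT libraries (28.7, 31.1 and 27.2 CPM) were at the KD level. All 3 calls ended without KD 1, KD 3, PARPi 2 or PARPi 3, those of Naam and Nadk1a also without KD 2 (adjusted p up to 0.245) and with plain library sizes (adjusted p = 0.204 and 0.187 by edgeR).

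In glycolysis 2 of 16 genes were higher and none lower (4 and 0 with the replicate block). Shares called were 12.5%, beside 4.08% of all genes, and 25% with the block, close to 24.6% of all genes. Pfk, phosphofructokinase, gave 109, 100.1 and 107 CPM in KD and 83.7, 77.9 and 78.2 CPM in PARPi, higher with a log2 fold change of 0.40 (SE 0.0647, adjusted p = 0.00348 by edgeR), and Pgi, the enzyme just before it in the pathway, was higher with a log2 fold change of 0.25 (SE 0.0611, adjusted p = 0.0374 by edgeR), a call lost without KD 1, KD 3, PARPi 2 or PARPi 3 (up to 0.189). In lipid metabolism 1 of 20 genes was higher and 2 lower (5 and 5 with the block), or 15% of the list and 50% with the block. Lip4, a lipase, gave 2.29, 2.55 and 2.49 CPM in KD and 4.75, 4.64 and 5.57 CPM in PARPi, lower with a log2 fold change of -1.03 (SE 0.117, adjusted p = 3.65e-04 by edgeR). Its KD libraries also lay below all WT libraries (4.30, 4.61 and 4.47 CPM). Seipin, which shapes lipid droplets, was lower with a log2 fold change of -0.38 (SE 0.0681, adjusted p = 0.00644 by edgeR), and Lpin (lipin), a phosphatidate phosphatase, was higher with a log2 fold change of 0.33 (SE 0.0703, adjusted p = 0.0177 by edgeR). Seipin and Lpin lost their calls without KD 3 or PARPi 3 and Lpin also without KD 1 (adjusted p up to 0.136). Among the largest falls were also arg, arginase, with 21.5, 23.3 and 24.4 CPM in KD and 43.0, 38.8 and 46.3 CPM in PARPi, lower with a log2 fold change of -0.89 (SE 0.0785, adjusted p = 1.36e-04 by edgeR), and Npc2b, a sterol-binding protein, with 3.59, 3.56 and 3.57 CPM against 6.88, 6.26 and 8.05 CPM, lower with a log2 fold change of -0.98 (SE 0.109, adjusted p = 3.22e-04 by edgeR). In Npc2b the WT libraries lay between the groups without overlap (5.25, 5.22 and 5.51 CPM).

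Genes of translation and respiration mostly had negative log2 fold changes, and the number called depended on the fit. Summed levels of cytoplasmic ribosomal proteins overlapped, at 248634 to 281250 CPM in KD and 276661 to 332497 CPM in PARPi. Their share of counts before TMM scaling was 26.7 to 28.4% in KD and 28.0 to 30.2% in PARPi (p = 0.2 by an exact two-sided permutation test). Of 80 cytoplasmic ribosomal proteins 3 were lower and none higher, yet 79 had a negative log2 fold change and the median was -0.22, negative in all 22 alternatives (from -0.275 to -0.119). Fitted with the replicate block, 71 of the 80 were lower, beside 13.6% of all genes. DESeq2 called 32 lower (3.65% of all genes) and the fit without a filter 35 (4.12%), while plain library sizes left 1. RpL27A, 1 of the called genes with the most reads, gave 3046, 3364 and 3242 CPM in KD and 3674, 4129 and 4034 CPM in PARPi, with a log2 fold change of -0.29 (SE 0.0744, adjusted p = 0.0408 by edgeR). RpS5b, a paralogue used mainly in the germline, gave 15.9, 19.3 and 17.6 CPM against 23.5, 28.0 and 29.5 CPM, with a log2 fold change of -0.62 (SE 0.0926, adjusted p = 0.00191 by edgeR), and RpL18 was lower with a log2 fold change of -0.29 (SE 0.0691, adjusted p = 0.0300 by edgeR). The call of RpL27A ended without KD 1, KD 2, KD 3, PARPi 2 or PARPi 3, and that of RpL18 without KD 1, KD 3, PARPi 2 or PARPi 3 (adjusted p up to 0.223).

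In mitochondria, 3 of 71 mitochondrial ribosomal proteins were lower (mRpS21 at -0.39, mRpL43 at -0.28 and mRpL48 at -0.24) and none higher, with a median of -0.145. Of 81 nuclear genes of the respiratory chain 4 were lower (ND-19, ND-B18 and ND-ASHI of complex I at -0.29, -0.28 and -0.28, and cype of complex IV at -0.23) and none higher, with a median of -0.15. Summed levels of these respiratory chain genes were 11070 to 11950 CPM in KD and 12090 to 12948 CPM in PARPi, without overlap. Before TMM scaling their share of counts overlapped, at 1.18 to 1.21% in KD and 1.15 to 1.22% in PARPi (exact permutation test, p = 0.6). Of 12 mRNAs made from the mitochondrial genome 2 were lower. Their share was 3.01 to 3.62% in KD and 3.37 to 4.38% in PARPi (exact permutation test, p = 0.2). mt:CoII, a subunit of complex IV, gave 3038, 3837 and 3271 CPM in KD and 3891, 6030.2 and 4668 CPM in PARPi, without overlap and with a log2 fold change of -0.52 (SE 0.130, adjusted p = 0.0388 by edgeR). mt:Cyt-b, of complex III, gave 2824, 4229 and 3433 CPM against 4134, 5861 and 5055 CPM, with a log2 fold change of -0.52 (SE 0.136, adjusted p = 0.0465 by edgeR), although KD 2 lay above PARPi 1. With the replicate block the counts of lower genes in these lists were 40, 49 and 10, with 1 higher in the respiratory chain. DESeq2 called 9 mitochondrial ribosomal proteins lower and none higher, 7 respiratory chain genes lower and 1 higher, and 2 mitochondrial mRNAs lower. In the same order the fit without a filter called 12, 17 and 9 lower and plain library sizes 0, 0 and 2. DESeq2 did not call mt:CoII or mt:Cyt-b (adjusted p = 0.0954 and 0.117). All 9 single calls of this paragraph ended without KD 1, KD 3, PARPi 2 or PARPi 3, and those of mRpL43, mRpL48, ND-19 and cype also without KD 2 (adjusted p up to 0.230). The trend on gene length described next moved with these lists, and with it removed mRpL43, mRpL48 and cype were not called (adjusted p = 0.0644, 0.132 and 0.145 by edgeR).

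Fold changes followed the summed exon length of the gene. Over the 7491 genes with at least 1 CPM the median log2 fold change rose from -0.154 in the shortest decile (72 to 818 bases) to 0.10 in the longest decile (5814 to 71820 bases). The same trend ran between libraries of 1 group: in the shortest decile KD 1 deviated by -0.168 and KD 2 by 0.0328, PARPi 1 by -0.0629 and PARPi 2 by 0.188. Its part in the results was not tested beyond its removal. With the trend removed in the model 800 genes were called, 40.9% of them higher in KD, and the medians were -0.153 for ribosomal proteins (13 lower), -0.0759 for mitochondrial ribosomal proteins (5 lower), -0.0925 for the respiratory chain (5 lower, 1 higher) and -0.281 for mitochondrial mRNAs (5 lower). The heat shock lists kept medians of 1.17 and 1.16. The plot of gene lists shows both medians, and the plot by exon length shows the trend in fold changes and in each library.

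**Figure D4:**
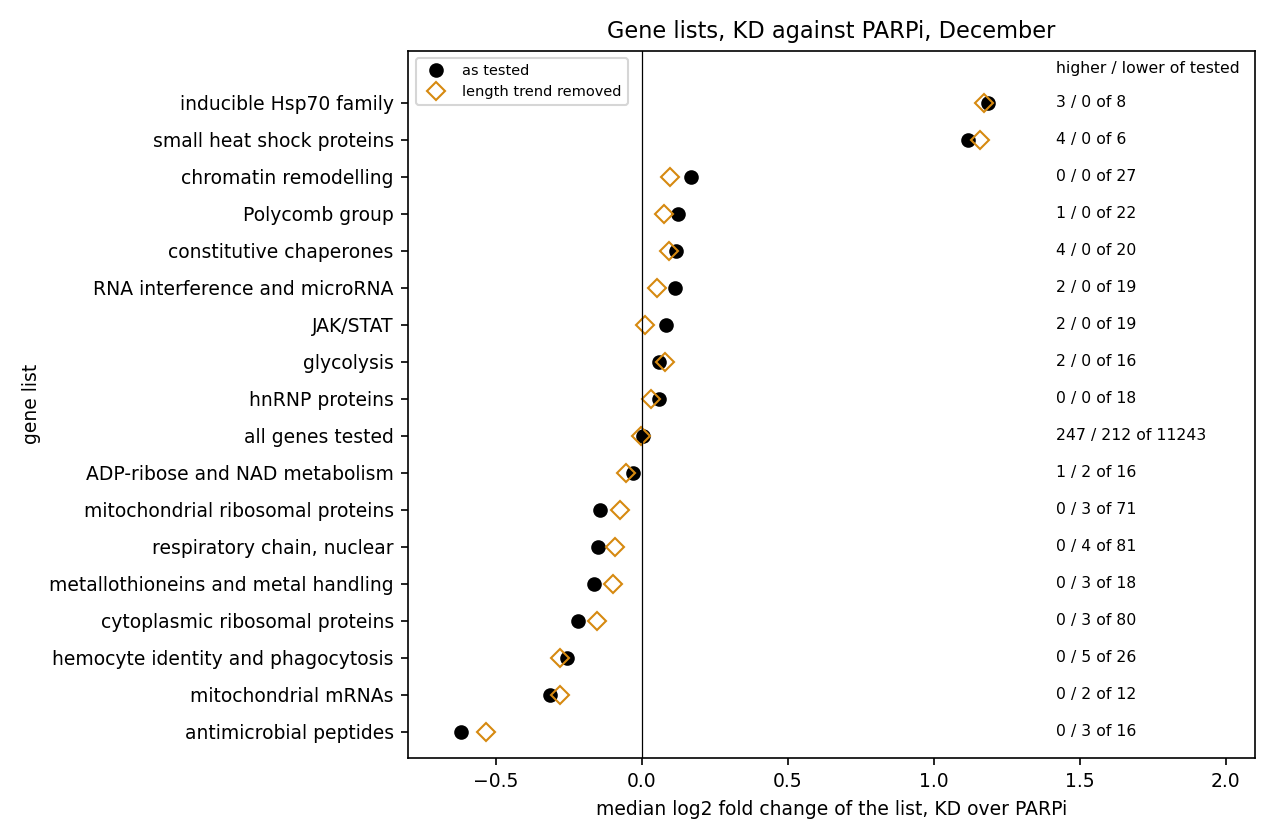
Median log2 fold change of KD over PARPi (horizontal axis) for 17 gene lists and all genes tested, as tested (black) and with the trend on gene length removed (orange); numbers give the members called higher and lower of those tested. The 2 heat shock lists lie above 1 on the log2 scale, and the antimicrobial peptides lie lowest at -0.62.

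**Figure D5:**
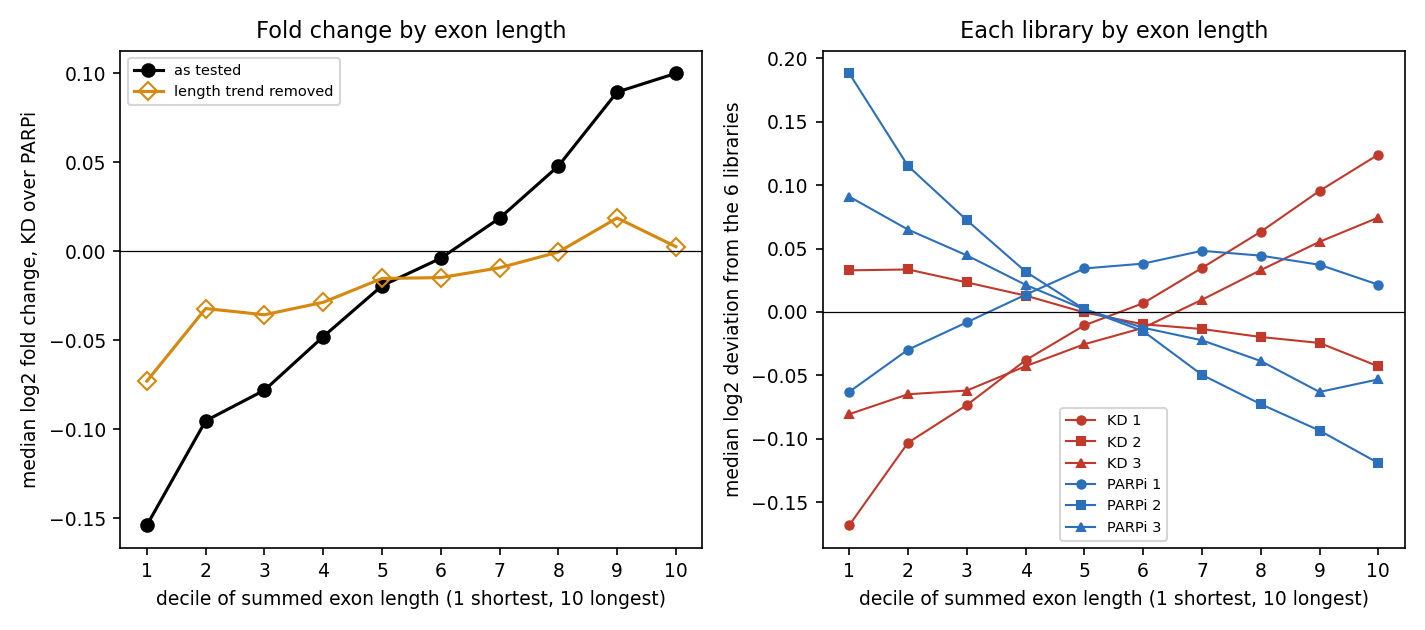
Left, median log2 fold change of KD over PARPi in deciles of genes by summed exon length, from -0.154 in the shortest to 0.10 in the longest as tested (black), and with the trend removed (orange). Right, the median log2 deviation of each library from the mean of the 6 libraries in the same deciles, with PARPi 2 and KD 1 at opposite ends of the shortest decile (0.188 and -0.168).

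Regulators of chromatin and RNA gave few calls. None of 27 chromatin remodelling genes was called by edgeR, with 22 positive and a median of 0.167. Of these genes 14 were at an unadjusted p below 0.05, all higher in KD, beside 20.9% of all genes in either direction. DESeq2 called 2 and the replicate block 17, all higher, beside 3.61% and 11.0% of all genes. The block with the length trend removed called 11, all higher, beside 8.14% of all genes. Psc, a subunit of the PRC1 complex, was the 1 called gene of 22 in the Polycomb group, with 46.8, 36.6 and 41.4 CPM in KD and 33.6, 31.2 and 32.3 CPM in PARPi, higher with a log2 fold change of 0.36 (SE 0.0837, adjusted p = 0.0277 by edgeR). That list had 4.55% called, beside 4.08% of all genes. The block gave 12 higher and 1 lower in it (59.1%, beside 24.6% of all genes). In RNA interference 2 of 19 genes were higher (10.5%) and none lower, and 10 were higher with the block (52.6%). piwi, an Argonaute protein of transposon silencing, had a log2 fold change of 0.61 (SE 0.134, adjusted p = 0.0218 by edgeR). Ranbp21, the fly exportin 5, had a log2 fold change of 0.32 (SE 0.0786, adjusted p = 0.0370 by edgeR). The 3 calls ended without KD 1, KD 3 or PARPi 3, and those of Psc and Ranbp21 also without PARPi 2 (adjusted p up to 0.209). These lists hold long genes, and with the length trend removed their medians were 0.097, 0.075 and 0.053.

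No gene was called by edgeR among 18 hnRNP proteins, 15 SR proteins, 21 proteins of the Sm ring and U1 snRNP, 23 factors of circular RNA formation, 30 factors of RNA polymerase II pausing and elongation, 20 insulator proteins, 34 genes of DNA damage response and repair and 35 cell cycle regulators. At an unadjusted p below 0.05 were 2, 3, 6, 1, 10, 3, 9 and 10 genes of these lists in that order, beside 20.9% of all genes. DESeq2 called 1 SR gene, 1 Sm or U1 gene, 2 pausing genes, 2 repair genes and 1 cell cycle gene, all higher in KD. With the replicate block the counts of higher and lower genes were 3 and 0, 3 and 2, 4 and 5, 5 and 0, 10 and 2, 7 and 0, 12 and 2, and 10 and 4 in the same order, beside 11.0% and 13.6% of all genes. Removal of the length trend in the fit with the block changed them to 2 and 3, 3 and 2, 4 and 3, 2 and 4, 7 and 5, 3 and 0, 8 and 1, and 10 and 6, and the median of the circular RNA factors from 0.027 to -0.017. Of 39 genes of DNA replication 1 was called (8 higher and none lower with the block): Cdc7, the kinase that fires origins, giving 16.5, 14.9 and 15.9 CPM in KD and 11.7, 11.7 and 10.9 CPM in PARPi, higher with a log2 fold change of 0.46 (SE 0.0744, adjusted p = 0.00340 by edgeR). Of 49 translation factors 1 was higher (eIF4G2 at 0.28) and 2 lower (eIF4EHP, a cap-binding repressor of translation, at -0.34, and eIF3h at -0.24). The block gave 1 higher and 12 lower, and plain library sizes 1 higher and none lower. Without KD 1 or PARPi 3 none of the 3 was called, and without KD 3 or PARPi 2 only eIF4EHP was, while eIF3h also lost its call without KD 2 (adjusted p up to 0.235 by edgeR).

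Host genes of circular RNAs, the subject of the study, are given by their total counts, which do not separate linear from circular RNA. Of 245 measured host genes 16 were called (6.53%, beside 4.08% of all genes), 7 higher and 9 lower. Host genes are abundant, 242 of the 245 having at least 1 CPM. Of all 7491 genes with at least 1 CPM 429 were called, with 5.10% to 6.31% on the arms other than chromosome 4, close to the share of host genes. The list was drawn by the study from these libraries. Its median was -0.024 and turned to 0.075 with plain library sizes and to 0.007 without KD 2. Fer1HCH had the smallest adjusted p. CG5151 gave 48.6, 40.5 and 44.7 CPM in KD and 31.1, 25.7 and 29.9 CPM in PARPi, higher with a log2 fold change of 0.62 (SE 0.0854, adjusted p = 0.00110 by edgeR). miple2, a secreted growth factor, gave 68.3, 63.3 and 61.6 CPM against 49.4, 49.7 and 48.8 CPM, higher with a log2 fold change of 0.39 (SE 0.0643, adjusted p = 0.00405 by edgeR), and larp, an RNA-binding protein, was higher with a log2 fold change of 0.35 (SE 0.0648, adjusted p = 0.00769 by edgeR). Leaving out KD 3 or PARPi 3 ended the call of larp (adjusted p up to 0.0732). The balance of calls depended on the fit: 19 host genes were higher and 3 lower with plain library sizes, 7 and 34 with the length trend removed (median -0.096, beside 2.91% and 4.21% of all genes), 37 and 75 with the replicate block, and 16 and 107 with both the block and the trend removed (beside 8.14% and 12.4% of all genes). The 8 host genes for which the study designed primers had log2 fold changes between -0.093 and 0.13 and none was called, with a lowest adjusted p of 0.308 by edgeR and 1 called with the block. Of 42 genes with exons skipped differently in PARPi and KD, 2 were lower and none higher, among them RpL27A (14 lower and 8 higher with the block).

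Beyond these lists, the largest rise among genes of at least 1 CPM was that of lncRNA:CR44138, a long non-coding RNA, with 4.19, 4.04 and 3.20 CPM in KD and 1.37, 1.26 and 1.32 CPM in PARPi, with a log2 fold change of 1.53 (SE 0.143, adjusted p = 1.36e-04 by edgeR). The neuropeptide genes Nplp1 and Orcokinin rose, the first with a log2 fold change of 1.45 and the second of 1.18 (adjusted p = 0.00352 and 9.37e-04 by edgeR). Orcokinin gave 5.11, 5.13 and 6.37 CPM in KD against 1.88, 2.39 and 3.05 CPM. Rises of more than 2-fold were also those of CG9782 (1.29), sug, a zinc finger factor of lipid and sugar metabolism (1.10), and Duox, an oxidase that makes hydrogen peroxide (1.05). All 3 KD libraries lay above all 3 PARPi libraries in each of these 6 genes, which was a condition for naming them here. The call of Duox ended without KD 3 or PARPi 3 (adjusted p up to 0.113).

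Among the other large falls, CG11400 gave 143, 176 and 158 CPM in KD and 256, 298 and 341 CPM in PARPi, lower with a log2 fold change of -0.91 (SE 0.0993, adjusted p = 3.22e-04 by edgeR). lncRNA:CR44948 gave 0.396, 0.880 and 0.699 CPM against 1.28, 1.77 and 2.42 CPM, with a log2 fold change of -1.48 (SE 0.280, adjusted p = 0.00908 by edgeR). CG43799, CG31431, CG34054, CG5397 and CG8501, named only by annotation number, had log2 fold changes of -1.14, -1.02, -0.97, -0.95 and -0.93. The groups did not overlap in any of these 7 genes, since lack of overlap was again a condition for naming them. Without PARPi 3 the calls of lncRNA:CR44948, CG43799, CG34054 and CG5397 ended, without KD 3 those of the first 3, and without KD 1 or KD 2 that of CG5397 (adjusted p up to 0.122). Among genes with very high counts, Act5C, a cytoplasmic actin, gave 3031, 2931 and 3001 CPM in KD and 3769, 3575 and 3504 CPM in PARPi, lower with a log2 fold change of -0.28 (SE 0.0678, adjusted p = 0.0374 by edgeR). tsr (twinstar), the cofilin that severs actin filaments, was lower with a log2 fold change of -0.33 (SE 0.0794, adjusted p = 0.0320 by edgeR). Act5C and tsr lost their calls without KD 1, KD 3, PARPi 2 or PARPi 3, and Act5C also without KD 2 (adjusted p up to 0.178 by edgeR).

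WT libraries entered none of these calls and are described by their position. In 372 of the 459 called genes the December WT mean lay between KD and PARPi, in 37 above both and in 50 below both. Over all 11243 genes tested these counts were 4242, 3188 and 3813 in the same order. Called genes were selected for a gap between KD and PARPi, which leaves more room for a WT mean between them. Whether the 372 exceed what this selection gives was not tested. The WT mean was nearer to PARPi in 315 of the called genes (68.6%), beside 57.5% of all genes tested. Fer1HCH, MtnA, Zip99C, Drs, Lip4 and Socs36E were genes in which the WT mean was nearer to PARPi, whereas PGRP-SA, Naam and Pvf1 had it nearer to KD.

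October gave the fold change of KD over WT in separate libraries, where 3364 of 12096 genes were called (27.8%). Of the 459 called genes 280 (61.0%) had the same sign in October KD against WT as in December KD against PARPi, beside 55.5% of all genes tested. In 157 (34.2%) the October change was called in the same direction and in 93 (20.3%) in the opposite one, beside 17.7% and 12.5% of all genes tested in both months. As examples chosen after their values were seen, Lip4 was lower in both (October -0.83, adjusted p = 2.35e-08 by edgeR), as were Npc2b (-1.04), PGRP-SA (-1.02), He (-1.38), CG43799 (-1.79) and lncRNA:CR44948 (-1.51), and stv (0.51), CG9782 (1.03), Hsp68 (0.49) and Hsp70Bb (0.91) were higher in both. MtnA went the other way, with 1.01 in October (adjusted p = 1.45e-07 by edgeR), as did Fer1HCH (0.20), edin (1.01), Glt (0.98), Hsp83 (-0.58) and Thor (-0.65). Hsp26, Hsp27 and Hsp23 were not called in October (-0.10, 0.16 and 0.06). Cytoplasmic ribosomal proteins had a median of 0.235 in October, with 60 of 80 higher and 2 lower, against -0.22 in December KD over PARPi. Antimicrobial peptides had an October median of 0.321, with 7 of 16 higher and 1 lower, against -0.62 in December. Nuclear respiratory chain genes had -0.155 in October, with none of 81 higher and 40 lower, against -0.15 in December. Of all genes tested in October, 13.8% were called higher and 14.0% lower.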

How the data were processed

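Paired-end RNA-seq of total RNA of S2 cells was deposited by the authors as raw counts per gene, made with FastQC 0.10.1, STAR 2.6 and HTSeq 0.10.0 on BDGP6 per the labels; the sources used here do not state the strand setting or the treatment of multiply matched reads. DESeq2 is also named there. Symbols and positions came from Ensembl release 115 of BDGP6 (17599 of 17737 identifiers matched). Genes with at least 10 counts over the 6 libraries were TMM-scaled and tested with edgeR 4.0.16 (R 4.3.3), quasi-likelihood test, Benjamini-Hochberg threshold 0.05. CPM of WT libraries used the same TMM reference. October (7 libraries) was fitted alone. Replicates differed beyond sampling noise, so each library is 1 replicate; whether they came from separate cultures is not stated in the labels, and p-values measure the spread between them.

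Libraries with the same number deviated together over 7491 genes of at least 1 CPM (r = 0.637, 0.395 and 0.173 for numbers 1, 2 and 3, although KD 2 with PARPi 3 gave 0.232; over all genes tested 0.0773, 0.0419 and 0.0152), so a fit with the number as a block is given. The numbers come from the labels.

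Alternatives were DESeq2 1.42.0, RLE factors, plain library sizes without the 20 largest genes, no filter, filterByExpr, 9 December libraries in 1 model, removal of a trend on exon length (spline with 5 degrees of freedom), and each library left out. The members, gene lists and tests were chosen with earlier results of these data known. Named genes were Parp1, the 12 largest rises and the 12 largest falls among called genes of at least 1 CPM without overlap, the 8 called genes with the most counts (less 1 whose identifier had no symbol) and, of the 4 members with the smallest p in a list, those that were called, for the lists the text describes. The 8 host genes with primers are given as a range. Zip99C, PPO3, Hsp67Ba and the genes of chromosome 4 were added after their values were seen. Of these, 2 genes are not reported here.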

Additional observations from a re-analysis of the deposited data

Results flagged for a closer look

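In the October reading, 1 of the 4 KD libraries stood apart for 8 of the named genes, by the ratio of its gap to the range of the group set against Dixon's limit for 4 samples; chance alone gives about 1 in 20 such cases. The ratio was 0.923 for Hsp67Bc (2.23, 2.24, 2.32 and 3.39 CPM), 0.921 for Pvf1 (97.1, 97.7, 98 and 109 CPM), 0.881 for lncRNA:CR44138 (10.3, 10.4, 10.5 and 11.9 CPM), 0.856 for lncRNA:CR44948 (0.899, 1.19, 1.24 and 1.24 CPM), 0.833 for mt:CoII, 0.849 for Rnf11, 0.854 for RpS5b and 0.874 for ND-B18. No explanation was tested.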

How the results depend on the processing

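The 459 calls of KD against PARPi became 816 with DESeq2, 728 with plain library sizes without the 20 genes with most counts, 1085 without a filter, 800 with the length trend removed, 2306 with the length trend removed and the replicate block, 2766 with the replicate block and 1967 with DESeq2 and the block. Leaving out 1 library gave between 102 and 1851 calls, and with the replicate block as well it gave 1985 without KD 1, 2127 without KD 2, 1875 without KD 3, 1986 without PARPi 1, 2133 without PARPi 2 and 2055 without PARPi 3. These last fits and DESeq2 with the block were added after seeing the data. Of the 86 called genes named in the text none changed direction in its up to 22 alternatives, 31 stayed called in all of them, and all 86 were called with the replicate block. These genes were named because they were called in the same 6 libraries, so an unchanged direction follows largely from that choice. The alternatives reuse these libraries and are not separate checks. Plain library sizes ended 19 of these calls, filterByExpr 8, 9 libraries in 1 model 7, removal of the length trend 4, RLE factors 2 and DESeq2 2. Parp1, with a log2 fold change of 0.001, turned negative with the replicate block (-0.0028), the length trend removed (-0.035), both (-0.041), DESeq2 with the block (-0.000259), and with single libraries left out, where it ranged from -0.051 to 0.080, and from -0.090 to 0.083 with the block; it was called in none of these. The number of gene lists with at least 1 called member was 30 and became 49 with the block, 50 with the block and length trend removed, 47 with DESeq2 and the block, 16 to 49 with 1 library left out, and 48 to 49 with the block as well. The cause of these shifts was not tested. Genes under 1 CPM rest on few reads (Hsp67Bc on 3 to 33), and intervals of single levels were not computed.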

Other observations

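Chromosome 4, the small and largely heterochromatic chromosome of the fly, was looked at after its values were seen. Of its 68 genes with at least 1 CPM 6 were called, all lower in KD (8.82%, beside 5.10% to 6.31% on the other arms), and 56 had a negative log2 fold change. The median was -0.117, while the other arms lay between -0.0142 and -0.00488. It stayed between -0.188 and -0.0774 with each library left out, was -0.163 with the length trend removed and -0.0175 with plain library sizes, where the other arms lay between 0.0847 and 0.0938. With the replicate block 27 of the 68 were lower and 3 higher. The called genes were fuss, a Smad corepressor expressed in neurons (-0.77), Pur-alpha, a nucleic acid binding protein (-0.46), Rnf11 (-0.47), CG33941 (-0.37) and the antisense RNAs asRNA:CR44029 (-0.54) and asRNA:CR43957 (-0.48), whose counts are uncertain without the strand. All 6 lost their calls without KD 3 or PARPi 3 (adjusted p up to 0.258 by edgeR). In October KD against WT the median of these genes was 0.0606.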
